A study of Ictalurus punctatus x Ictalurus furcatus and Ictalurus furcatus and Ictalurus punctatus with 8 samples.

Results

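The 4 livers of F1 hybrid catfish, 2 of the cross F1_BC and 2 of the cross F1_CB, were set against the 4 livers of the parental species, 2 of channel catfish (PC, Ictalurus punctatus) and 2 of blue catfish (PB, Ictalurus furcatus), which together are all 8 livers of the series. A liver was placed on the hybrid or the parental side by its labelled genetic type alone, so no measured value chose the sides. F1_BC comes from a blue catfish female and a channel catfish male, and F1_CB from a channel catfish female and a blue catfish male. The fish were of the same age and received no treatment. Each liver came from a separate fish taken at random, so p-values of the main fit rest on the spread between fish of the same type. Each genetic type was reared in its own tank, so an effect of type cannot be told apart from one of tank. The question of the pooling was which genes and liver functions stood higher or lower in both reciprocal crosses than in the parental species.

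The liver makes most of the proteins of the blood plasma, handles glucose, amino acids and lipids, forms bile acids, and breaks down heme. Heme oxygenase, the family with the largest differences here, opens the heme ring and releases biliverdin, carbon monoxide and iron. An F1 hybrid carries 1 genome copy of each parental species, so a gene whose 2 alleles act independently can be read against the midpoint of the species, and a hybrid level outside both species is called transgressive.

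The values are given in CPM, counts relative to the total of a library, after scaling the libraries to each other, and a difference is the mean log2(CPM + 0.5) of the 2 crosses minus that of the 2 species, with its standard error (SE). Of 13444 genes listed, 13407 exceeded a mean of 1 CPM in a minimum of 1 type and were tested, and 1847 of the genes carry no symbol and are named by their Ensembl identifiers. Scaling factors ranged from 0.790 to 1.20. The top 20 genes of a library held 28.6% to 31% of it in the parental livers, 37.2% and 39% in F1_BC, and 33.2% and 28.3% in F1_CB. Across genes, which are not independent replicates, the Spearman correlation was 0.880 to 0.941 between hybrid livers and 0.684 to 0.906 between parental livers. As a check of the tissue, 8 hepatocyte markers summed to between 60549 and 147525 CPM and 4 skeletal muscle markers to between 5.22 and 16.1 CPM. The deposited values keep no read counts, and the sequencing yields that the paper lists in its supplement were not used here. No counting error is therefore given.

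Between the hybrid and the parental livers, 32 genes passed an adjusted p under 0.05 (limma with Benjamini-Hochberg adjustment), 30 of them higher in the hybrids, or 0.224% of the genes tested, and 2 lower, or 0.0149%. All 32 also passed an absolute log2 difference over 1.5. At an unadjusted p under 0.05 there were 937 genes higher in the hybrids (6.99%) and 631 lower (4.71%). The balance toward higher genes depended on how the parental level was set. With the 2 species averaged in CPM before the log2, 6 genes were higher and 16 lower, and the median of all genes moved from 0.02 to -0.14. In the values as deposited, 4 genes were higher and 2 lower and the median of all genes was -0.25, and after quantile normalization 9 were higher and 2 lower. Leaving out single livers gave between 2 and 123 genes, and a fit of 2 groups of 4 livers, in which the difference between the species counts as spread, gave 0 genes by limma, with 652 at an unadjusted p under 0.05. In whole livers, fewer cells of a type and less RNA per cell cannot be told apart.

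Each cross gave its own count against the same 4 parental livers. F1_BC had 17 genes higher (0.127%) and 4 lower (0.0298%), and F1_CB had 14 higher (0.104%) and 5 lower (0.0373%). Since both comparisons share the parental livers, their values are given side by side and no overlap between them is read. Between the crosses themselves, 18 genes differed at an adjusted p under 0.05 from limma, and 1 of them, efhb, was among the 32.

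The livers of the 2 sides did not overlap at 10 of the 32 genes, at 9 with every hybrid liver above every parental liver and at 1 with every hybrid liver below. Over all genes tested, 190 had all hybrid livers above (1.42%) and 266 had all below (1.98%); in the values as deposited, these counts were 51 and 664. The remaining 22 of the 32 genes overlapped, and all 22 differed between PC and PB at an adjusted p under 0.05 from limma. The smallest two-sided p that an exact permutation test over the 8 livers allows is 0.0286 (2 of 70 splits). Any gene without overlap has this p, so it adds nothing to the choice of these 10 genes.

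Heme oxygenases showed the largest difference. hmox (heme oxygenase) stood at 28.8 and 134 CPM in the PC livers, 43.9 and 38.3 CPM in the PB livers, 967 and 643 CPM in the F1_BC livers, and 831 and 364 CPM in the F1_CB livers. The lowest hybrid liver was above the highest parental liver, and within the parental side 1 PC liver stood apart at the high end. The hybrid mean of 701 ± 261 CPM (SD, n = 4) was 11.4-fold the parental mean of 61.3 ± 49.0 CPM (SD, n = 4), with a log2 difference of 3.69 (SE 0.45, adjusted p = 0.0125 from limma). The difference was 3.95 in F1_BC and 3.43 in F1_CB, and 3.41 with the species averaged before the log2 (adjusted p = 0.0195). The call was lost without PB replicate 2 (adjusted p = 0.0517 from limma) and without F1_CB replicate 1 (0.0696).

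A second gene, ENSIPUG00000016708, described as heme oxygenase-like, had 18.4 and 80.7 CPM in PC, 17.2 and 6.74 in PB, 506 and 191 in F1_BC, and 364 and 159 CPM in F1_CB. Again no livers overlapped, the mean was 9.92-fold higher in the hybrids, and the log2 difference was 3.70 (SE 0.51, adjusted p = 0.0241 from limma), a call lost without PB replicate 2, F1_BC replicate 1 or F1_CB replicate 1. Another copy with that description, ENSIPUG00000016750, had 3.39 and 51.7 CPM in PC, 54.6 and 238 in PB, 303 and 289.8 in F1_BC, and 388 and 323 CPM in F1_CB. After scaling, all its hybrid livers were above the parental livers, but as deposited PB replicate 2 lay above both F1_BC livers. Its log2 difference of 3.00 (SE 0.67) had an adjusted p of 0.117 from limma. The other heme oxygenase genes stood at a few CPM or less, with log2 differences of -0.87 for hmox1a and -0.63 for hmox2b that did not pass (adjusted p = 0.433 and 0.574 from limma). Of 5 heme oxygenase genes tested, 2 passed, both higher, against 0.224% of all genes on that side. The family was taken up after the values were seen. The source does not say how reads shared by near-identical copies were counted, so the split of counts among these copies is uncertain. The rest of the heme and iron list did not pass the test: of its 30 genes, 22 had a positive difference with a median of 0.28, against 52.1% of all genes and a median of 0.02. uros, a synthase of the heme pathway, lay the other way, at 2.57 to 5.37 CPM in the parental livers and 1.35 to 1.81 CPM in the hybrid livers (log2 difference -0.88, adjusted p = 0.357 from limma).

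Transporters followed. slc5a12 (solute carrier family 5 member 12, a sodium-coupled transporter of lactate and related acids in mammals) had 6.84 and 2.68 CPM in PC, 7.64 and 1.66 in PB, 36.4 and 23 in F1_BC, and 51.3 and 34.6 CPM in F1_CB. Every hybrid liver was above every parental liver, the means differed 7.72-fold, and the log2 difference was 2.98 (SE 0.44, adjusted p = 0.0269 from limma), at 2.71 in F1_BC and 3.25 in F1_CB. It did not pass in the values as deposited (adjusted p = 0.0546 from limma), without the intensity trend (0.0673), or without any 1 of 5 livers, namely PB replicate 2 and the 4 hybrid livers. SLC25A34, a carrier of the mitochondrial inner membrane, had 60.0 and 132 CPM in PC, 11.9 and 7.62 in PB, 99.5 and 54.9 in F1_BC, and 250.2 and 187 CPM in F1_CB. One F1_BC liver lay within the range of PC, the other just below it and both F1_CB livers above it, and the log2 difference of 2.08 (SE 0.34, adjusted p = 0.0400 from limma) became 1.25 with the species averaged before the log2 (adjusted p = 0.188). Of 8 fits without 1 liver it passed in 2, those without PC replicate 2 and without PB replicate 1.

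Proteins of the cell surface and the matrix made up a further pair. clstn3 (calsyntenin 3, a membrane protein of the cadherin family) was low in every liver, at 1.24 and 0.521 CPM in PC, 0.433 and 0.267 in PB, 6.2 and 4.5 in F1_BC, and 6.39 and 4.81 CPM in F1_CB. The hybrid mean was 8.89-fold the parental mean, with a log2 difference of 2.48 (SE 0.36, adjusted p = 0.0241 from limma). One of the genes with the symbol MFAP4 (ENSIPUG00000011412, described as microfibril-associated glycoprotein 4-like, related to a glycoprotein bound to elastic fibres) had 81.5 and 95.6 CPM in PC, 75.5 and 90.8 in PB, 280.3 and 899.6 in F1_BC, and 464 and 416 CPM in F1_CB. The parental livers lay close together and the hybrid livers at 6-fold their mean, for a log2 difference of 2.45 (SE 0.35, adjusted p = 0.0241 from limma). Of 8 fits without 1 liver, MFAP4 passed in 4, failing without PB replicate 2, F1_BC replicate 2 or either F1_CB liver, and clstn3 in 3, failing without PB replicate 2 or any hybrid liver.

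The other higher genes without overlap act in trafficking, chromatin and nucleoside use. ENSIPUG00000016778, described as target of Myb protein 1-like, a family that sorts ubiquitin-tagged cargo, had 24 and 57.7 CPM in PC, 49 and 123 in PB, 240.0 and 213 in F1_BC, and 288 and 253 CPM in F1_CB. The hybrid livers differed little from each other and lay 3.92-fold above the parental mean (log2 difference 2.19, SE 0.36, adjusted p = 0.0416 from limma). With the species averaged before the log2 it did not pass (1.95, adjusted p = 0.0642 from limma), and of the 8 fits without 1 liver it passed in 2, those without PC replicate 2 and without PB replicate 2. A histone H3.3 gene, ENSIPUG00000019301, had 193 and 263 CPM in PC, 77.3 and 56.6 in PB, 359 and 461 in F1_BC, and 591 and 475 CPM in F1_CB. H3.3 is the histone variant laid down outside DNA replication, and this copy was 3.20-fold higher in the hybrids (log2 difference 1.92, SE 0.27, adjusted p = 0.0241 from limma), with PC between PB and the hybrids. The histone gene passed in 3 of 8 such fits, those without PC replicate 1, PC replicate 2 or PB replicate 1. si:dkey-4e7.3, described as like an inosine-uridine hydrolase, had 14.9 to 29.1 CPM in the parental livers and 40.1 to 93.9 CPM in the hybrid livers (log2 difference 1.82, SE 0.32, adjusted p = 0.0458 from limma). Of the 8 fits it passed in 1, that without PC replicate 2, and with the species averaged before the log2 its difference of 1.77 had an adjusted p of 0.0536 from limma. mcrip2, a partner of a MAPK-regulated corepressor, had 3.29 and 6.21 CPM in PC, 27 and 21.7 in PB, and 31 to 47 CPM in the hybrid livers (log2 difference 1.74, SE 0.30, adjusted p = 0.0447 from limma). The hybrid livers lay closer to PB than to PC at mcrip2, and with the species averaged before the log2 its difference was 1.31 (adjusted p = 0.126 from limma). mcrip2 also passed in 1 of the 8 fits, that without PC replicate 2.

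Both genes that were lower have neither a symbol nor a description, and they were chosen after their values were seen. ENSIPUG00000019579 had 83.2 and 97.8 CPM in PC, 48.3 and 89.7 in PB, 13.5 and 12.8 in F1_BC, and 19.7 and 27.9 CPM in F1_CB. Every hybrid liver lay below every parental liver, at 0.232 of the parental mean, with a log2 difference of -2.10 (SE 0.29, adjusted p = 0.0241 from limma). ENSIPUG00000012356 had 1029.8 and 699 CPM in PC, 201 and 158 in PB, 104 and 254 in F1_BC, and 78.4 and 42.5 CPM in F1_CB. One F1_BC liver was above both PB livers, so the sides overlapped, and the log2 difference was -2.0 (SE 0.35, adjusted p = 0.0458 from limma). Of 8 fits without 1 liver, ENSIPUG00000019579 passed in 3, failing without PB replicate 2 or any hybrid liver, and ENSIPUG00000012356 in 1, that without PC replicate 2.

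**Figure D1:**
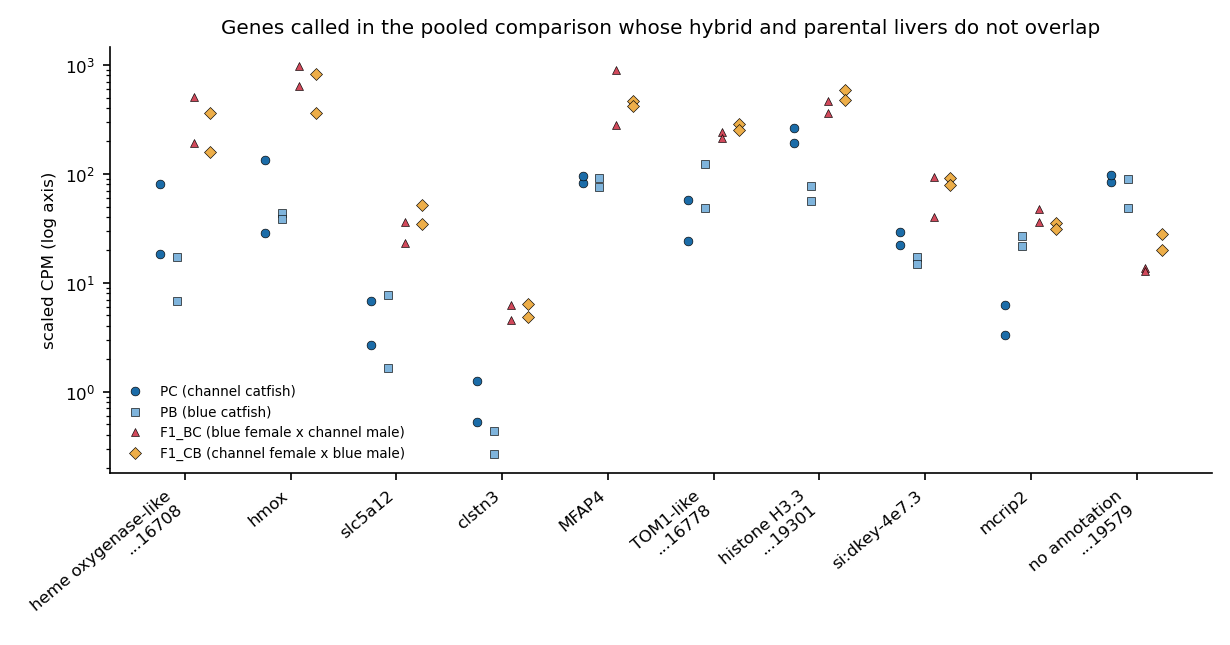
Scaled CPM (log axis) of the 10 genes with an adjusted p under 0.05 whose hybrid and parental livers do not overlap, 1 point per liver, coloured by genetic type. The 4 hybrid livers of hmox lie between 364 and 967 CPM, above the highest parental liver at 134 CPM, and of the 10 genes ENSIPUG00000019579 alone has its hybrid livers below the parental livers.

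A stricter comparison asked for hybrids outside both species, with the larger of the p-values against PC and PB adjusted over all genes. Of 13407 genes 0 passed by limma (smallest adjusted p = 0.629), and 135 had both differences in the same direction at an unadjusted p under 0.05, 65 of them higher and 70 lower than both species. By means alone, 2894 genes had the hybrid mean above both species, 3076 below both and 7437 between the species. Of the 32 genes, 15 had their hybrid mean above both species, 2 below both and 15 between.

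The 15 genes between the species were all on the higher side. At 11 of them PC was the higher species and at 4 PB. At these genes the midpoint sets the size of the difference. The mean of 2 log2 values lies below the log2 of the mean wherever the species differ, and this gap had a median of 1.99 at these genes, of 0.22 at the 10 genes without overlap and of 0.13 over all genes. Among all 22 overlapping genes, PC was the higher species at 17 and PB at 5. With the species averaged before the log2, 8 of the 32 genes still passed, 6 of them higher, and 5 genes turned to a negative difference.

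col (colipase, the cofactor of pancreatic lipase) had the clearest example. It stood at 1788 and 783 CPM in PC, 5.23 and 4.77 in PB, 1036 and 1415 in F1_BC, and 929 and 695 CPM in F1_CB. All hybrid livers lay within or near the range of PC and far above PB, so the log2 difference was 3.61 (SE 0.32, adjusted p = 0.000560 from limma), but 0.61 with the species averaged before the log2 (adjusted p = 0.446). Colipase is made by exocrine pancreas, which lies inside the liver of many fishes; the sum of 5 acinar markers was 218 to 2863 CPM in the parental livers and 253 to 3440 CPM in the hybrid livers, with a median log2 difference of -1.06 in F1_BC and 0.42 in F1_CB. The part of these cells in the level of col was not tested.

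The cystatin-like gene ENSIPUG00000002512, of a family of cysteine protease inhibitors, had the smallest p of all genes. It stood at 1.49 and 1.16 CPM in PC, 310.3 and 303 in PB, 354 and 319 in F1_BC, and 141 and 123 CPM in F1_CB. F1_BC lay at the level of PB and F1_CB below it, for a log2 difference of 3.16 (SE 0.25, adjusted p = 0.000438 from limma) that became 0.45 with the species averaged before the log2 (adjusted p = 0.492). zgc:110789, described as like solute carrier family 23 member 1, a vitamin C transporter, had 37.5 and 24.6 CPM in PC, 0.188 and 0.466 in PB, 23.2 and 29.4 in F1_BC, and 19.8 and 30.2 CPM in F1_CB. The hybrid livers overlapped PC, and the log2 difference of 2.36 (SE 0.31, adjusted p = 0.0230 from limma) became 0.67 (adjusted p = 0.403). Blue catfish reads were mapped to the channel catfish genome, and the part of this mapping in genes listed near 0 in PB was not tested.

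Further overlapping genes, chosen after their values were seen, repeated the pattern from either species. MCMDC2, a protein of meiotic recombination in mammals, had 136 and 110.0 CPM in PC, 6.31 and 3.36 in PB, and 71 to 82 CPM in the hybrid livers, close to the parental mean of 63.8 CPM. nxpe3 (ENSIPUG00000002999) had 0.178 and 0.668 CPM in PC, 24.7 and 21 in PB, and 12.7 to 19.6 CPM in the hybrid livers. noxo1b, an organizer of the NADPH oxidase that makes reactive oxygen, had 0.0254 and 0.0628 CPM in PC, 17.3 and 10.8 in PB, and 7.63 to 10.1 CPM in the hybrid livers. In all 3 genes every hybrid liver lay between the livers of the 2 species. adob, described as like 2-aminoethanethiol dioxygenase, an enzyme of taurine formation in mammals, went past the higher species in 3 of 4 hybrid livers, at 0.532 and 0.104 CPM in PC, 7.02 and 4.03 in PB, 9.75 and 9.47 in F1_BC, and 17.5 and 6.05 CPM in F1_CB (adjusted p = 0.0462 from limma, with a hybrid mean 3.66-fold the parental mean). efhb, an EF-hand protein, was the gene at which the crosses differed. It had 60.1 and 19.1 CPM in PC, 0.310 and 0.294 in PB, 103 and 64.2 in F1_BC, and 8.51 and 5.03 CPM in F1_CB, so its log2 difference was 3.96 in F1_BC and 0.43 in F1_CB.

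**Figure D2:**
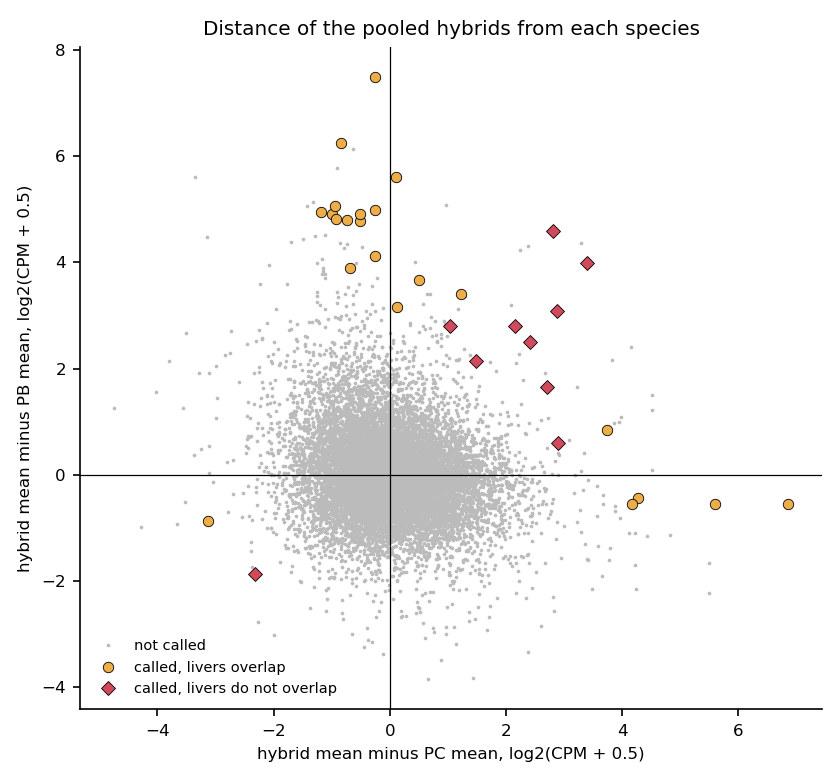
Hybrid mean minus PC (horizontal) against hybrid mean minus PB (vertical), both as log2(CPM + 0.5), for all 13407 genes, with the 32 genes that passed in colour; diamonds mark the 10 without overlap and circles the 22 with overlap. Many circles lie near 0 on one axis and far above 0 on the other, as col does at -0.26 against PC and 7.49 against PB.

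**Figure D3:**
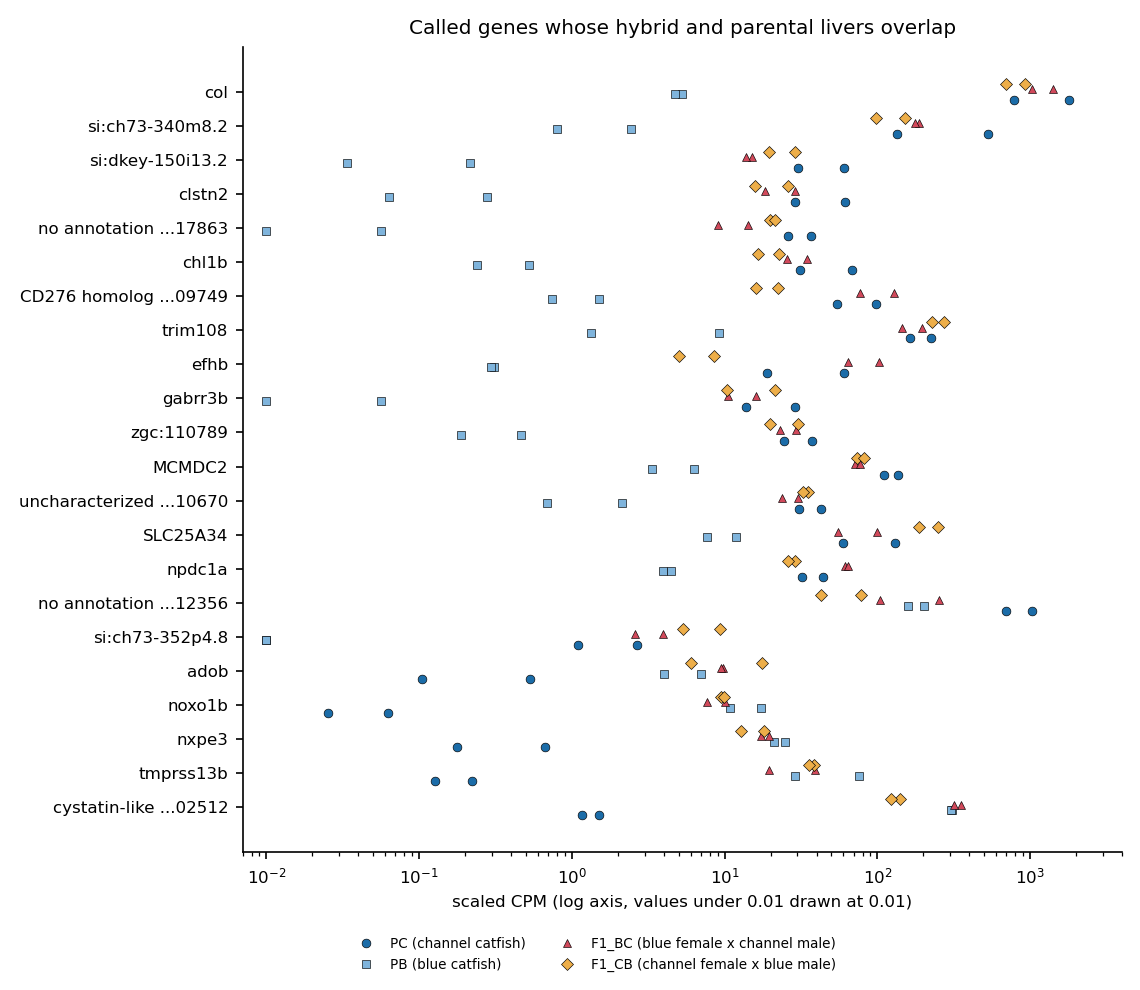
Scaled CPM (log axis) of the 22 genes that passed and whose hybrid and parental livers overlap, 1 point per liver, coloured by genetic type and ordered by the difference between PC and PB; values under 0.01 are drawn at 0.01. PC is the higher species at 17 genes and PB at 5. At MCMDC2 the hybrid livers lie between 71 and 82 CPM, with PC at 136 and 110.0 CPM and PB at 6.31 and 3.36 CPM.

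To describe functions, 42 lists with 2300 tested genes were read in the same fit. They held 3 of the 32 genes (hmox, slc5a12 and SLC25A34, all higher). On the higher side 0.224% of all genes passed, a larger share than these 3 of 2300. The lists are therefore described by the differences of all their tested members, and higher and lower there give the sign of a difference. Of 42 medians, 32 were above the median of all genes, and 55 list genes (2.39%) had all hybrid livers above the parental livers, against 1.42% of all genes, while 46 (2.0%) had all below, close to the 1.98% of all genes. A list's median minus that of all genes is called its relative median. Leaving out single livers moved the relative median by over 1.5 times in 38 of the 42 lists. Its sign changed in 4 (fatty acid synthesis, glycogen, proteasome and ubiquitin enzymes). The 4 lists that moved less in these fits were cytosolic ribosomal proteins, chaperones, the citric acid cycle and glycolysis. Other scalings, pseudocounts or filters took the relative median of cytosolic ribosomal proteins from 0.31 to as low as 0.10. That of glycolysis went from 0.38 to as low as 0.23. Single list members other than genes of a qRT-PCR panel (irf7 here) were named after their values were seen, and apart from those 3 genes none passed the adjusted test. Overlap of their livers is judged on scaled values. As deposited, 51 genes rather than 190 had all hybrid livers above. Among the members named below, rps13, ndufab1a, xbp1 and PROC overlapped as deposited.

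Genes of protein synthesis had small positive differences at most members. Among cytosolic ribosomal proteins, 79 of 88 were higher in the hybrids with a median of 0.34, at 0.32 in F1_BC and 0.39 in F1_CB, and 14.8% had an unadjusted p under 0.05 on the higher side, against 6.99% of all genes. The median was 0.55 against PC and 0.14 against PB. rps13, a protein of the small subunit, had 111 and 234 CPM in PC, 343 and 281 in PB, 375 and 528 in F1_BC, and 587 and 519 CPM in F1_CB. After scaling, all hybrid livers were above the parental livers, with a log2 difference of 1.15 (SE 0.31, adjusted p = 0.197 from limma). rpl21, rpl19 and rpl4 of the large subunit also had no overlap, at differences of 0.86, 0.76 and 0.55. These 4 genes were 4.55% of the list, against 1.42% of all genes, and 0 members had all hybrid livers below. The median was 0.22 over 74 mitochondrial ribosomal proteins, 0.21 over 74 translation factors and 0.31 over 31 tRNA synthetases; in the last list iars2, the mitochondrial isoleucyl-tRNA synthetase, had 2.76 to 3.79 CPM in the parental and 6.77 to 9.42 CPM in the hybrid livers. Translation factors had a relative median of 0.19, and 0.05 without PC replicate 1 or 0.34 without PC replicate 2, and tRNA synthetases one of 0.28, and 0.06 or 0.48 without the same livers. For mitochondrial ribosomal proteins it was 0.20, and 0.13 without F1_BC replicate 2. Against PC the median was 0.39 for mitochondrial ribosomal proteins, 0.42 for translation factors and 0.74 for tRNA synthetases. Against PB these medians were -0.03, -0.09 and -0.16, so the positive differences of these lists lay against PC.

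Respiratory chain genes had 92 of 102 members higher, with a median of 0.33 (0.29 in F1_BC and 0.38 in F1_CB). The median was 0.55 against PC and 0.03 against PB, so nearly all of the difference lay against PC. Their relative median was 0.31, with 0.20 without PB replicate 2 and 0.46 without PC replicate 2. ndufab1a, the acyl carrier subunit of complex I, had 9.68 and 14.6 CPM in PC, 9.75 and 11.8 in PB, 19.4 and 19.8 in F1_BC, and 19.1 and 20.8 CPM in F1_CB. The 4 hybrid livers lay within a narrow band above the parental livers (log2 difference 0.78, SE 0.28, adjusted p = 0.329 from limma). cox10, which makes the heme A of cytochrome c oxidase, had 4.09 to 8.28 CPM in the parental livers, 8.58 and 8.42 in F1_BC, and 15.6 and 19.4 CPM in F1_CB, for log2 differences of 0.46 and 1.45. Only ndufab1a and cox10 had all hybrid livers above, 1.96% of the list, near the 1.42% of all genes. Both overlapped in the values as deposited. The citric acid cycle had 19 of 24 members higher (median 0.30) and fatty acid oxidation 33 of 45 (median 0.30). Relative to all genes the latter median was 0.28, and 0.16 without PB replicate 2. The median of the citric acid cycle was 0.48 against PC and 0.07 against PB. That of fatty acid oxidation was 0.59 and 0.04, so most of both differences lay against PC.

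Genes of folding and secretion in the endoplasmic reticulum (ER), where plasma proteins are made, were mostly higher. Chaperone and ER stress genes had 84 of 112 members higher with a median of 0.30, at 0.20 in F1_BC and 0.46 in F1_CB, and secretion genes had 77 of 104 (median 0.26, at 0.19 and 0.29). Against PC the chaperone median was 0.70 and against PB -0.00. Secretion genes had a relative median of 0.24, and 0.14 without PC replicate 1. xbp1, a transcription factor of the unfolded protein response, had 209.8 and 222 CPM in PC, 135 and 148 in PB, 247 and 672 in F1_BC, and 337 and 264 CPM in F1_CB. Its hybrid livers were all above, by a log2 difference of 1.0 (SE 0.33, adjusted p = 0.291 from limma), with F1_BC replicate 2 above all other livers. lman1, a receptor that carries clotting factors out of the ER in mammals, had 48.2 to 63.3 CPM in the parental and 64.4 to 91.4 CPM in the hybrid livers. sec24c of the COPII coat had 22.9 to 33.1 CPM in the parental and 39.1 to 74.1 CPM in the hybrid livers. All hybrid livers lay above at 4 chaperone genes (3.57%) and 5 secretion genes (4.81%), against 1.42% of all genes. They lay below at 0 and 1 (0.962%), against 1.98%. The cargo protease furina, which cleaves proproteins and was in no list, had 9.98 to 39.6 CPM in the parental and 47.4 to 61.3 CPM in the hybrid livers (log2 difference 1.61, SE 0.31, adjusted p = 0.0709 from limma).

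Among plasma proteins, clotting factors were higher at 23 of 24 genes with a median of 0.50 (0.64 in F1_BC and 0.35 in F1_CB), and acute phase proteins at 12 of 12 with a median of 0.68 (0.78 and 0.46). The relative median of clotting factors, 0.47, was 0.33 without PB replicate 2 and 0.71 without PB replicate 1, and that of acute phase proteins, 0.66, was 0.43 without PB replicate 2. PROC (protein C, an anticoagulant protease) had 80.5 and 77.6 CPM in PC, 35.6 and 17.3 in PB, 101 and 125 in F1_BC, and 101 and 92.4 CPM in F1_CB. No livers overlapped, and the log2 difference was 1.22 (SE 0.29, adjusted p = 0.147 from limma). Elsewhere in these lists the livers overlapped, as at plg (plasminogen), with 1429 to 4814 CPM in the parental and 3555 to 5107 CPM in the hybrid livers. Complement genes had 13 of 23 higher with a smaller median of 0.25. Relative to all genes it was 0.22, from 0.05 without F1_CB replicate 1 to 0.39 without F1_CB replicate 2. Other scalings, pseudocounts or filters took this relative median as low as 0.03, and that of clotting factors as low as 0.22.

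Hepatocyte markers were mostly higher too. They carried the symbols ambp, apoa1b, tfa, fabp10a, ttr and fgb, with more than 1 gene each for apoa1b and tfa. Most are plasma protein genes themselves, so they are not independent of these lists. The summed level of 8 hepatocyte markers was 60549 to 65142 CPM in the parental livers and 112829, 147525, 107779 and 70504 CPM in the hybrid livers. The scaled sums thus did not overlap. In the values as deposited they did, since PB replicate 2 (scaling factor 1.20) lay above F1_CB replicate 2 (scaling factor 1.05). Of the 8 markers 7 were higher with a median of 0.72, at 1.0 in F1_BC and 0.44 in F1_CB. Relative to all genes this median was 0.69, and 0.19 after quantile normalization, and that of the acute phase list was 0.66 and 0.41 on the same footing. The abundant markers fabp10a, a liver fatty acid binding protein, and apoa1b (ENSIPUG00000007405), an apolipoprotein A-I of high density lipoprotein, had log2 differences of 0.93 and 0.87 (adjusted p = 0.385 and 0.406 from limma). The part of the hepatocyte share of the RNA in the differences of the liver lists was not tested.

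Among liver metabolic functions, amino acid breakdown and the urea cycle had 64 of 77 members higher with a median of 0.36 (0.56 in F1_BC and 0.27 in F1_CB), and 23.4% had an unadjusted p under 0.05 on the higher side, against 6.99% of all genes. The relative median of this list was 0.33, and 0.22 without PB replicate 2. gcshb, the lipoyl carrier of glycine cleavage, had 35.7 and 45.3 CPM in PC, 60.9 and 32.3 in PB, 94.7 and 101 in F1_BC, and 78.5 and 81.1 CPM in F1_CB. Its hybrid livers were all above (log2 difference 1.05, SE 0.29, adjusted p = 0.203 from limma), as were those of gcat, which cleaves 2-amino-3-ketobutyrate to glycine, with 26.5 to 52.8 CPM in the parental and 64.9 to 78.5 CPM in the hybrid livers. DBT and bckdhb, subunits of the enzyme complex that degrades branched-chain keto acids, had differences of 0.82 and 0.68 without overlap. asl, an enzyme of the urea cycle, went the other way at 4.39 to 7.6 CPM in the parental and 2.97 to 3.83 CPM in the hybrid livers. In this list 5 members had all hybrid livers above (6.49%, against 1.42% of all genes) and 2 had all below (2.6%, against 1.98%).

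Glycolysis and gluconeogenesis had 38 of 56 members higher with a median of 0.40 (0.39 in F1_BC and 0.33 in F1_CB), with 23.2% at an unadjusted p under 0.05 on the higher side, against 6.99% of all genes. pgk1, which forms ATP in glycolysis, had 34.2 to 63.4 CPM in the parental and 80.6 to 133 CPM in the hybrid livers (log2 difference 0.90, adjusted p = 0.294 from limma). slc2a2, the liver glucose transporter, had 135 to 260.2 CPM in the parental and 295 to 460.3 CPM in the hybrid livers. In the same list pfkpa, a phosphofructokinase, had 6.48 to 8.2 CPM in the parental livers and 2.71 to 4.56 CPM in the hybrid livers, so members without overlap pointed both ways, 5 higher (8.93%, against 1.42% of all genes) and 2 lower (3.57%, against 1.98%). The separate glycogen list had 13 of 22 members higher with a median of 0.08, which relative to all genes was 0.05 and turned to -0.10 without F1_CB replicate 1. Its 1 member without overlap (4.55%, against 1.42% of all genes), ugp2a, which makes the sugar donor of glycogen, had 100.4 to 498 CPM in the parental and 575 to 951 CPM in the hybrid livers.

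Glycan degradation, the breakdown of sugar chains in lysosomes and the cytosol, had 13 of 18 members higher with a median of 0.30 (0.46 in F1_BC and 0.11 in F1_CB). Relative to all genes this median was 0.27, and 0.18 without F1_BC replicate 2. Other scalings, pseudocounts or filters took it as low as 0.13. The list median was 0.15 against PC and 0.78 against PB. Its summed level overlapped, at 155 to 364 CPM in the parental and 232 to 392 CPM in the hybrid livers. manba, the beta-mannosidase, had 5.6 and 7.89 CPM in PC, 4.54 and 0.479 in PB, 10.5 and 19.4 in F1_BC, and 13.4 and 9.54 CPM in F1_CB. The sides did not overlap, and the log2 difference of 1.73 (SE 0.47, adjusted p = 0.203 from limma) rested in part on 1 low PB liver. hexdc, a hexosaminidase, had 1.84 to 6.89 CPM in the parental and 7.99 to 10.3 CPM in the hybrid livers (log2 difference 1.14, adjusted p = 0.294 from limma). manba and hexdc were 11.1% of the list, against 1.42% of all genes, and 0 members had all hybrid livers below.

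Lipid and detoxification lists differed in direction. Bile acid genes had 17 of 19 higher with a median of 0.34, at 0.79 in F1_BC and 0.34 in F1_CB, and cytochrome P450 genes had 22 of 27 with a median of 0.64, at 0.94 and 0.36. The relative median was 0.32 for bile acid genes, between 0.16 without PB replicate 2 and 0.62 without F1_BC replicate 1, and 0.62 for cytochrome P450 genes, and 0.39 without PB replicate 2. lcat, which esterifies cholesterol in plasma lipoproteins, had 21.3 and 32.7 CPM in PC, 48.5 and 39.2 in PB, 70.3 and 94.1 in F1_BC, and 73.7 and 52.5 CPM in F1_CB, with no overlap (log2 difference 1.06, adjusted p = 0.197 from limma). Sterol synthesis had 11 of 30 higher with a median of -0.21, made of 0.45 against PC and -0.64 against PB; relative to all genes it was -0.23, between -0.38 and -0.10 without F1_BC replicate 2 and replicate 1. hmgcs1, the cytosolic HMG-CoA synthase at the entry of that pathway, had 51.4 and 22.6 CPM in PC, 77.3 and 29.2 in PB, 10.2 and 19.1 in F1_BC, and 8.38 and 20.1 CPM in F1_CB. Each hybrid liver was below each parental liver, for a log2 difference of -1.54 (SE 0.43, adjusted p = 0.212 from limma).

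Interferon response genes had the lowest median of all 42 lists. Only 4 of 30 members were higher, the median was -0.61 (-0.47 in F1_BC and -0.84 in F1_CB), and it was -0.55 against PC and -0.80 against PB. No member had an unadjusted p under 0.05 on the higher side, and 9 of 30 (30.0%) had one on the lower side, against 4.71% of all genes. All hybrid livers lay below all parental livers at 4 members (13.3%), against 1.98% of all genes. The summed level of the list overlapped, at 563 to 944 CPM in the parental and 646 to 873 CPM in the hybrid livers. irf7, a transcription factor that switches on type I interferon, had 24.9 and 12.2 CPM in PC, 16.8 and 19.9 in PB, 7.65 and 8.47 in F1_BC, and 11.6 and 8.09 CPM in F1_CB. The highest hybrid liver was just under the lowest parental liver, with a log2 difference of -0.98 (SE 0.32, adjusted p = 0.289 from limma). The other 3 members without overlap were xaf1, a pro-apoptotic protein, isg15, a ubiquitin-like modifier that the table describes as polyubiquitin-like, and psmb9a, a subunit of the immunoproteasome. xaf1 had 23.4 to 41.6 CPM in the parental and 15.6 to 20.4 CPM in the hybrid livers (log2 difference -0.84, adjusted p = 0.278 from limma). isg15 had 3.52 and 6.15 CPM in PC, 3.22 and 28.9 in PB, 0.768 and 1.52 in F1_BC, and 0.534 and 0.581 CPM in F1_CB (log2 difference -2.50, SE 0.56, adjusted p = 0.117 from limma). In isg15, PB replicate 2 was far above all other livers. That liver was the highest of the 8 at 15 of the 30 members, and a parental liver was the highest at 25. Without PB replicate 2 the median of the list relative to all genes was -0.40, against -0.64 with all livers.

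Inflammatory signalling and antigen presentation had smaller negative medians. Of 51 inflammatory genes 15 were higher (median -0.24, at -0.06 in F1_BC and -0.32 in F1_CB), and of 20 antigen presentation genes 8 were higher (median -0.32, at 0.10 in F1_BC and -0.46 in F1_CB). As relative medians these were -0.27 and -0.34, and -0.09 and -0.18 without F1_BC replicate 1. The former was -0.48 without PB replicate 1. At an unadjusted p under 0.05 from limma, 5 inflammatory genes (9.8%) were higher and 5 (9.8%) lower. Over all genes these shares were 6.99% and 4.71%. All hybrid livers lay below the parental livers at 4 inflammatory genes (7.84%, against 1.98% of all genes) and above them at 0. nod2, a sensor of bacterial cell wall fragments, had 7.14 and 2.87 CPM in PC, 1.3 and 0.768 in PB, 0.444 and 0.451 in F1_BC, and 0.316 and 0.291 CPM in F1_CB. All hybrid livers were below, with a log2 difference of -1.67 (SE 0.40, adjusted p = 0.151 from limma). ripk2, the kinase that nod2 engages, had 21.4 to 48.2 CPM in the parental and 10.5 to 18.6 CPM in the hybrid livers, and the chemokine gene cxcl12b had 9.25 to 22.2 and 5.66 to 7.48 CPM. Leukocyte markers were summed for comparison, at 38.9 to 92.1 CPM in the parental livers, 51.5 and 103 in F1_BC, and 31.5 and 20.1 CPM in F1_CB. Of 7 leukocyte markers 1 was higher, the median was 0.44 in F1_BC and -1.24 in F1_CB, and ptprc, the common leukocyte antigen, had 7.86 to 15.9 CPM in the parental and 6.67 to 23.3 CPM in the hybrid livers. Pooled over the crosses, the relative median of leukocyte markers was -0.54, and 0.09 without F1_BC replicate 1. The leukocyte medians lay on opposite sides of 0 in the crosses, and the part of leukocytes in the immune lists was not tested.

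**Figure D4:**
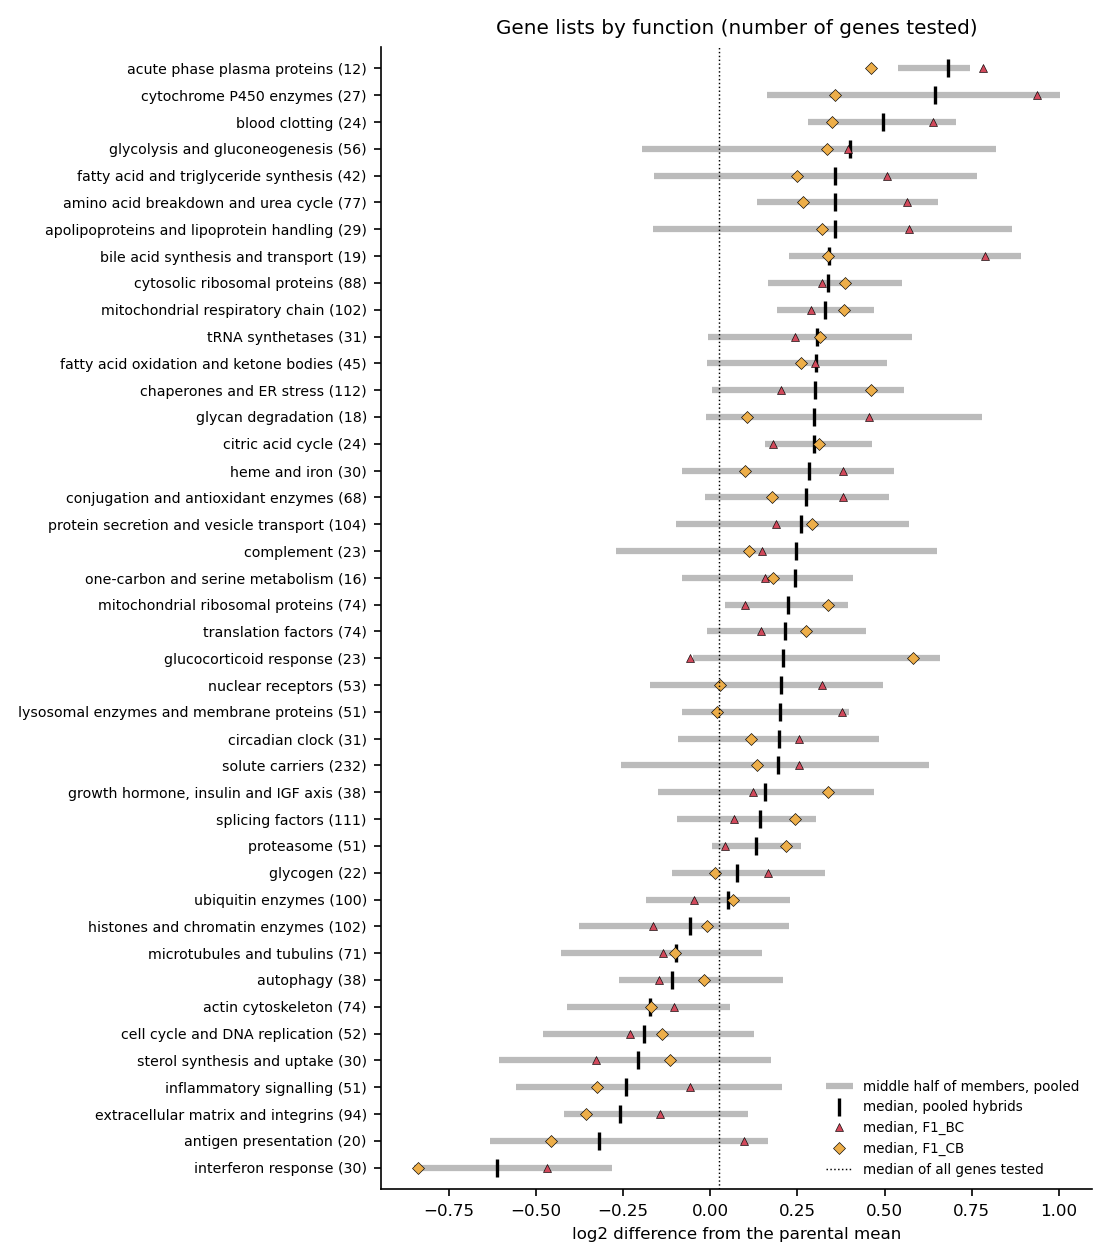
Median log2 difference of 42 function lists between hybrid and parental livers (black tick) with the interquartile range of the members (grey bar), the median in F1_BC (triangle) and F1_CB (diamond), and the number of genes tested in brackets; the dotted line is the median of all genes at 0.02. Interferon response lies lowest at -0.61 and acute phase proteins highest at 0.68.

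Cytoskeleton and matrix genes leaned low. Extracellular matrix and integrin genes had 30 of 94 members higher (median -0.26, at -0.14 in F1_BC and -0.36 in F1_CB), and actin cytoskeleton genes 23 of 74 (median -0.17, at 0.00 against PC and -0.42 against PB). In relative medians they stood at -0.28 and -0.20, and -0.13 and -0.06 without PC replicate 2. That of the actin genes was -0.32 without PB replicate 1. At an unadjusted p under 0.05 from limma, 4.26% of the matrix genes were higher and 4.26% lower. Among actin genes these shares were 1.35% and 10.8%, and over all genes 6.99% and 4.71%. TPM4, a tropomyosin that winds along actin filaments, had 19.1 and 29.5 CPM in PC, 30.8 and 27 in PB, 10.4 and 11.3 in F1_BC, and 10.6 and 13.6 CPM in F1_CB. The hybrid livers were tightly grouped below the parental livers (log2 difference -1.16, SE 0.28, adjusted p = 0.151 from limma). myl9, a regulatory light chain of nonmuscle and smooth muscle myosin, had 36 to 53.6 CPM in the parental and 21.4 to 29.9 CPM in the hybrid livers (log2 difference -0.92, adjusted p = 0.249 from limma). Among actin genes 4 had all hybrid livers below (5.41%, against 1.98% of all genes) and 0 had all above. Stellate cell or fibroblast markers, among them collagens, had 0 of 8 higher with a median of -0.25, and their summed level was 319.6 to 753 CPM in the parental and 394 to 526 CPM in the hybrid livers. Their relative median was -0.28, between -0.71 without PC replicate 1 and 0.01 without PC replicate 2. Microtubule genes had 28 of 71 higher (median -0.10) and members without overlap in both directions, such as stmn1b, a tubulin-binding stathmin, at 10.3 to 14.3 CPM in the parental and 1.7 to 6.5 CPM in the hybrid livers, and tbcc, a tubulin folding cofactor, at 2.43 to 13.5 and 19 to 27.3 CPM. At 3 microtubule genes (4.23%) all hybrid livers lay above and at 3 (4.23%) below, against 1.42% and 1.98% of all genes. Cell cycle genes had 19 of 52 higher (median -0.19) and chromatin genes 46 of 102 (median -0.06). For cell cycle genes the relative median was -0.21, and -0.05 without PC replicate 1.

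Hemoglobin genes, which mark the blood held in the tissue, were all on the lower side without passing the test. All 9 had a negative difference, as did 6419 of the 13407 genes tested. The summed level was 3477 and 6218 CPM in PC, 3193 and 11791 in PB, 4451 and 3489 in F1_BC, and 1765 and 1890.5 CPM in F1_CB. F1_CB lay below every parental liver and F1_BC within their range. At 1 of the 9 genes, ENSIPUG00000010311, no livers overlapped, with 360.4 to 694 CPM in the parental and 139.9 to 293 CPM in the hybrid livers (log2 difference -1.51, SE 0.31, adjusted p = 0.0820 from limma). Over all genes, 1.98% had all hybrid livers below. The 4 red blood cell markers summed to 645 to 1493 CPM in the parental and 425 to 1046 CPM in the hybrid livers.

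**Figure D5:**
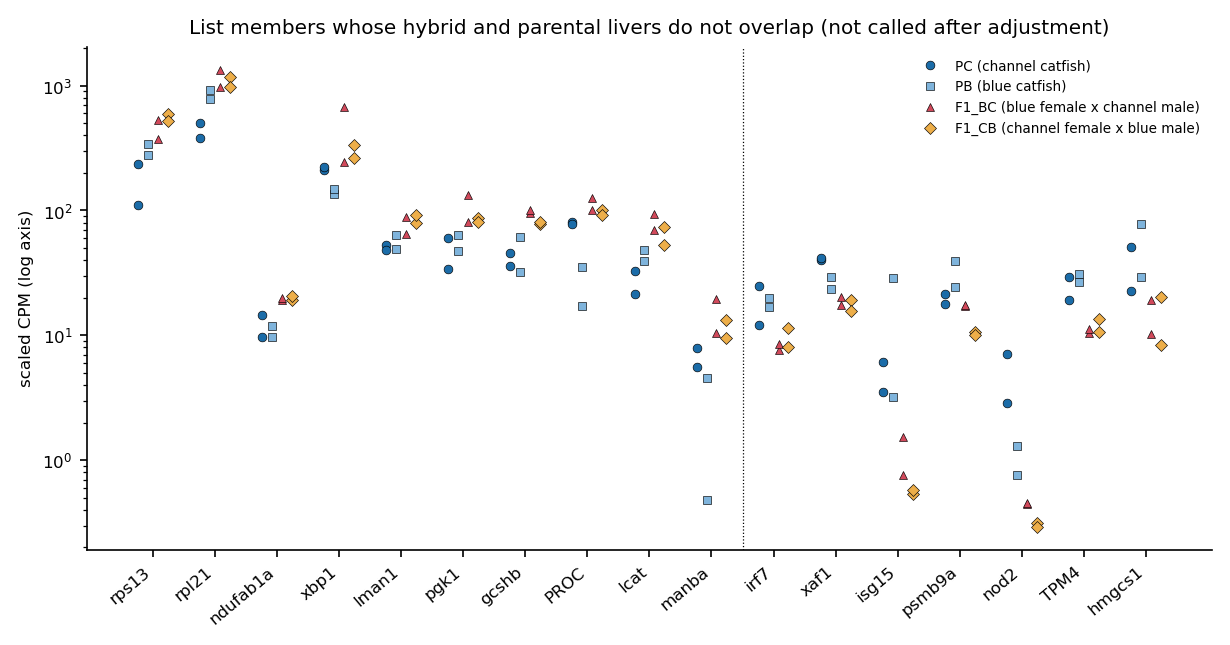
Scaled CPM (log axis) per liver of 17 members of the function lists whose hybrid and parental livers do not overlap, 10 with the hybrids above and 7 with the hybrids below; none had an adjusted p under 0.05. The hybrid livers of ndufab1a lie between 19.1 and 20.8 CPM, above the parental livers, and those of TPM4 between 10.4 and 13.6 CPM, below them. The separation is that of scaled values, and as deposited rps13, ndufab1a, xbp1 and PROC overlap.

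A panel of 6 genes had been chosen for qRT-PCR. The paper classes hmox and irf7 as concordant, with both crosses beyond both species in 1 direction. It classes tm4sf4 and creg1 as discordant between the crosses, and cyp2k19 and fgf1b as not transgressive. It reports that qRT-PCR bore out all 6. The pooled comparison asks for a shared difference from the species midpoint, which is another question. Of the 6, hmox passed it and 5 did not. tm4sf4, a tetraspanin-like membrane protein, had 105 and 104 CPM in PC, 278 and 47.4 in PB, 278 and 525 in F1_BC, and 107 and 86.3 CPM in F1_CB, and the values in F1_CB lay inside the parental range (log2 difference 0.80, adjusted p = 0.530 from limma). creg1, a glycoprotein of the endosomal and lysosomal pathway, had parental livers between 29.8 and 31.2 CPM, with 41.3 and 47.5 CPM in F1_BC and 29.7 and 17.3 CPM in F1_CB. The crosses lay on opposite sides of the parental livers, at 0.53 and -0.42, and the pooled difference was 0.06 (adjusted p = 0.958 from limma). cyp2k19, a cytochrome P450, and fgf1b, an acidic fibroblast growth factor, were high in PB and low in PC. cyp2k19 had 0.380 and 0.00524 CPM in PC, 28.6 and 15.4 in PB, and 2.96 to 11.3 CPM in the hybrid livers. fgf1b had 2.36 and 1.74 CPM in PC, 371 and 121 in PB, and 19.7 to 121 CPM in the hybrid livers. Both had hybrid livers between the species, with log2 differences of 0.90 and 1.05 (adjusted p = 0.465 and 0.525 from limma) that became -0.72 and -1.38 with the species averaged before the log2.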

How the data were processed

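Polyadenylated RNA of 8 catfish livers, 2 fish for each of 4 genetic types, was sequenced by the authors. Per the labels and methods, reads were checked with FastQC (version 0.11.5), trimmed with Trimmomatic (version 0.39 in the submitters' processing notes), mapped to the channel catfish genome with TopHat2 (version 2.1.1), counted on gene models with bedtools (version 2.29.0) and analysed with edgeR. The genome build and the use of strand are not given in the sources used here. The deposited values are called RPKM, but each library sums to between 996838 and 998652, and the log2 of a gene's mean differed by a median of -0.0089 from the log2 CPM average the authors list, and by -1.68 after division by transcript length. They were therefore treated as CPM as deposited, with no division by length. The transcript length that the authors list served only for this check.

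Libraries were scaled by the median of ratios over genes above 0.01 CPM in every library. Genes exceeding a mean of 1 CPM in some type were tested on log2(CPM + 0.5) with limma (version 3.58.1, R version 4.3.3). The model had 1 mean per genetic type and a prior variance that followed intensity. The spread within types had 4 degrees of freedom per gene, and the prior, drawn from all genes, had 7.94. P-values were adjusted over all genes by Benjamini-Hochberg, and since the values are not counts, no count test was run. This scale understates the change of low genes. In 3 hybrid libraries 6, 10 and 36 genes are listed at exactly 0. Further genes are listed at tiny values just above 0, namely 23 in each PC liver, 32 in each PB liver, 2 in each F1_BC liver and 4 in each F1_CB liver. No label gives a sequencing batch. Log2 differences were tested on simulated data first. Alternatives were other scalings, pseudocounts and filters, 2 pooled groups, the parental mean before the log2, a replicate block, no trend, and each library left out; the alternatives for genes without overlap, and leaving out libraries for the lists, were added after seeing the data.

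Named by rule were genes that passed without overlap (up to 10 a direction, with a symbol or description), up to 4 members a list that passed, the qRT-PCR genes, and the 3 genes with the smallest p in each direction that passed between the species. The comparison, the lists and the named genes were chosen with earlier results of these data known, and the lists were written from general knowledge of the proteins.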

Additional observations from a re-analysis of the deposited data

Results flagged for a closer look

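In 37 genes named in the comparison, the hybrid and the parental livers were each searched for a single liver far from the other 3, which made 74 groups. The cut marks about 1 group in 20 by chance if all 4 livers come from 1 normal distribution. Each group pools 2 genetic types, so the chance rate here is not known. At hmox, PC replicate 2 with 134 CPM stood apart from the other parental livers, by 0.856 of their range. At ENSIPUG00000016708, the same liver with 80.7 CPM stood apart by 0.842 of the range. Both genes are heme oxygenases, and both had larger differences without that liver. At tmprss13b, described as like a transmembrane serine protease, F1_BC replicate 1 with 19.4 CPM lay below the other hybrid livers by 0.838 of their range. The crosses differed at efhb, where F1_CB minus F1_BC was -3.53 on the log2 scale (adjusted p = 0.0312 from limma), with both F1_BC livers above both F1_CB livers.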

How the results depend on the processing

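The count of 32 genes, with or without the threshold on the log2 difference, became 6 as deposited, 11 after quantile normalization, 15 with a pseudocount of 1, 5 without the trend, and 0 with 2 groups of 4 livers. Without single livers it lay between 2 (F1_CB replicate 1) and 123 (PC replicate 2, or 112 with the threshold), with 50 without PB replicate 1 and 8, 5, 4 and 6 without PB replicate 2, F1_BC replicates 1 and 2 and F1_CB replicate 2. With a replicate block it was 71, or 69 with the threshold, against 21 becoming 48 for F1_BC and 19 becoming 44 for F1_CB. The labels do not say whether the replicate numbers pair livers across types. Of 6 correlations of the replicate deviations between types, 3 exceeded 0.1 (range -0.011 to 0.139). Correlations this weak cannot decide whether the numbers mark a pairing. The count of F1_CB was 7 as deposited and with a pseudocount of 1, 5 after quantile normalization, 8 with a filter at 5 CPM, 9 with the species averaged before the log2 and 0 without the trend, and 0 to 60 without single livers, against 1 to 57 for F1_BC. The difference between the crosses gave 10 genes without the trend and 2 to 25 without single livers. Genes beyond both species numbered 1 without PC replicate 2. Livers without overlap, 456 genes, were 715 as deposited, of which 664 were lower, and 312 at 5 CPM.

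Gene values were recomputed only for genes taken up in the comparison. Most of these had passed the test or had livers without overlap. Of 3196 such values, 3184 kept their sign, which this choice favours, so the count does not describe genes in general. Averaging the species before the log2 turned si:ch73-340m8.2 (-0.16), ENSIPUG00000017863 (-0.031), clstn2 (-0.060), chl1b (-0.060), si:dkey-150i13.2 (-0.29), cyp2k19 (-0.72) and fgf1b (-1.38). As deposited, txn2 was -0.020 and creg1 -0.24, and creg1 ranged from -0.14 to 0.25 without single livers. The hemoglobin gene zgc:163057 ranged from -0.33 to 0.040 without single livers, positive without F1_BC or F1_CB replicate 2. Between 30 and 32 list medians stayed above the median of all genes. With single livers left out, only col and ENSIPUG00000002512 passed in all 8 fits, and hmox in 6. The causes of these changes were not tested. Depth was not used, so the counting error of low genes is not covered.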

Other observations

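Beyond the lists' leading members, several liver regulators and transporters had no overlap between hybrid and parental livers, at 1.42% of all genes on the higher and 1.98% on the lower side, and none passed the adjusted test. nr5a5, a nuclear receptor of the family that controls bile acid and steroid genes, had 199 and 163 CPM in PC, 83.8 and 76.3 in PB, 268 and 415 in F1_BC, and 275 and 199.6 CPM in F1_CB (log2 difference 1.21, SE 0.27, adjusted p = 0.123 from limma). The lowest hybrid liver was just above the highest PC liver after scaling, and below it in the values as deposited. Of 53 nuclear receptors, nr5a5 alone had all hybrid livers above (1.89%, against 1.42% of all genes). At 2 others, esr1 and nr3c2, all hybrid livers lay below (3.77%, against 1.98% of all genes). creb3l2, a transcription factor released from the ER membrane, had 0.327 to 1.09 CPM in the parental and 2.3 to 3.58 CPM in the hybrid livers (log2 difference 1.55, adjusted p = 0.139 from limma). slco2a1, a prostaglandin transporter in mammals, had 11.2 to 55.5 CPM in the parental and 64.4 to 148 CPM in the hybrid livers (log2 difference 1.83, adjusted p = 0.104 from limma). Solute carriers as a whole had 145 of 232 genes higher, with a median of 0.19.

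On the lower side, rnf213b, a large ubiquitin ligase induced by interferon in mammals and in no list, had 21.4 and 22.4 CPM in PC, 13.5 and 26.5 in PB, 6.78 and 4.95 in F1_BC, and 7.04 and 8.23 CPM in F1_CB (log2 difference -1.54, SE 0.31, adjusted p = 0.0802 from limma). Every hybrid liver lay below every parental liver. card9, an adaptor of antifungal signalling in mammals, had 2.91 to 17.7 CPM in the parental and 1.21 to 2.78 CPM in the hybrid livers (log2 difference -1.61, adjusted p = 0.144 from limma). ca2, a carbonic anhydrase abundant in red blood cells of many vertebrates, had 19.4 CPM or more in each parental liver and 6.36 to 11.8 CPM in the hybrid livers (log2 difference -1.37, adjusted p = 0.117 from limma). hand2, a marker of stellate cells in the liver of zebrafish, had 8.45 to 21.8 CPM in the parental and 3.87 to 5.48 CPM in the hybrid livers (log2 difference -1.28, adjusted p = 0.203 from limma).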
